A study of Homo sapiens with 3 samples.

Results

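The nuclear genes for subunits of the mitochondrial respiratory chain were described in RH30 cells, an established human line of alveolar rhabdomyosarcoma, a childhood tumour with features of the skeletal muscle lineage. The members were all genes with a probe set that names a single gene and whose symbol belongs to complex I (NDUFA, NDUFB, NDUFC, NDUFS and NDUFV), complex II (SDH), complex III (UQCR and CYC1), cytochrome c (CYCS) or complex IV (COX4 to COX8). The rule took 51 genes with 72 probe sets, of 11963 genes that have such a probe set and 22277 probe sets in all. No measured value entered the rule. The members comprised 27 genes of complex I, 3 of complex II, 7 of complex III, 1 for cytochrome c and 13 of complex IV. COXFA4, formerly NDUFA4, is a complex IV subunit that the symbol rule did not take, and its values are given beside complex IV.

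RNA was measured on 3 Affymetrix arrays with 1 array per group. The first group was untreated RH30 cells, also labelled 12 h. The second was RH30 cells given a mutated PNA at 10 µM for 12 h. The third was RH30 cells given an anti-MYCN PNA at 10 µM for 12 h. A PNA is a peptide nucleic acid, a synthetic DNA analogue with a peptide-like backbone that binds matching nucleic acid. The anti-MYCN PNA is directed at MYCN, a MYC-family transcription factor, and the mutated PNA carries base changes and served as control. The labels of the untreated array conflict, since the source name gives mutated PNA where title and treatment give no treatment. The title was followed, and each direction between the controls depends on that. With 1 array per group there is no replicate error, so no test was made and no p-value is given, and a difference between arrays cannot be told apart from the variation between cultures, RNA preparations and hybridisations. RNA came from whole cultures, so fewer cells of a kind and less RNA per cell cannot be told apart.

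The respiratory chain carries electrons from NADH, through complex I, and from succinate, through complex II, to ubiquinone, then through complex III to cytochrome c and through complex IV to oxygen. Complexes I, III and IV pump protons across the inner mitochondrial membrane, and ATP synthase uses the resulting gradient. A few subunits are encoded in mitochondrial DNA and are no members here; all others are made in the cytosol and imported, and several subunits of complex IV exist as a ubiquitous form and as a form of heart and skeletal muscle.

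The regulatory sequence upstream of 4 members is shown because these genes carry the patterns described below: NDUFA5 had the lowest value relative to the controls, COX6A1 and COX6A2 are the ubiquitous and muscle-type forms of the same subunit, and NDUFS7 holds the E-box bound by MYC-family factors. Each sequence is the 250 bases before the annotated RefSeq gene start on GRCh38.p14, read 5′ to 3′ on the gene's strand. Capitals mark CGCATGCG, a palindrome recognised by NRF1, a factor known for driving respiratory chain genes, CACGTG, the E-box of MYC-family factors, and CAGCTG, an E-box bound by the muscle factor MYOD1.
NDUFA5 (chr7:123557819-123558068, minus strand, 1 of 3 RefSeq starts of the gene, the start whose promoter holds CGCATGCG): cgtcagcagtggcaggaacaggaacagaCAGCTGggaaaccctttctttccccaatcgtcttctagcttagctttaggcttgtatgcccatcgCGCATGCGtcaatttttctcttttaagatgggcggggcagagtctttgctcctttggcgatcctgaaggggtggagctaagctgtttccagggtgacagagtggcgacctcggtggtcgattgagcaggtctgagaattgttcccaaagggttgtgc
COX6A1 (chr12:120437863-120438112, plus strand): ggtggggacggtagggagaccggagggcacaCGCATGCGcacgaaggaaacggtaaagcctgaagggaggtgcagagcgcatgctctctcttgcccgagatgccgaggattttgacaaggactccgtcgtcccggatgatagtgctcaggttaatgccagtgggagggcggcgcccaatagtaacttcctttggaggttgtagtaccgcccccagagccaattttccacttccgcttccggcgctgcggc
NDUFS7 (chr19:1383657-1383906, plus strand): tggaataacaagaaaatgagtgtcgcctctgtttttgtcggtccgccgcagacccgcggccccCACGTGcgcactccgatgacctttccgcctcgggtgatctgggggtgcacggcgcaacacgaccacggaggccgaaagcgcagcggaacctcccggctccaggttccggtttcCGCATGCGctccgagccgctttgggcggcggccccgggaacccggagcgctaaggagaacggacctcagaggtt
COX6A2 (chr16:31428361-31428610, minus strand): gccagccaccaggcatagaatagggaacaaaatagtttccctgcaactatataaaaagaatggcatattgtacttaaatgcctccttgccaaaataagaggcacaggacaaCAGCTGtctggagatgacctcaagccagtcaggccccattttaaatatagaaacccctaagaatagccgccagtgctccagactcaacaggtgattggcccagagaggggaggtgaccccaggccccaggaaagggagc
CGCATGCG lay 157 bases before the start of NDUFA5, 219 before that of COX6A1 and 74 before that of NDUFS7. CACGTG lay 187 bases before the NDUFS7 start. CAGCTG lay 222 bases before the NDUFA5 start and 139 before that of COX6A2.

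The values are MAS5 signals, the linear brightness summarised per probe set, scaled by the submitters so that the mean without the highest and lowest 2% is 500.2 on each array. A probe set passed when its mean over the arrays was at least 117.1, the median of all signals, and a gene is represented by its passing probe set of highest mean. On this filter 49 of the 51 members and 64 of their 72 probe sets passed; COX6A2 and COX7A1, the muscle-type genes, did not. The subunit genes gave bright signals: 28 of the 49 were among the brightest 10% of the 6745 genes tested, those with a mean signal of at least 3216. Signals of different probe sets depend on their probes, so levels are compared only between arrays.

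Facts of the whole arrays bear on the size of any difference. MYCN, the targeted gene, had signals of 3313 in untreated cells, 2804 with mutated PNA and 2202 with anti-MYCN PNA, which is 66.5% and 78.6% of the controls. The median gene probe set read 110.9 untreated, 112.4 with mutated PNA and 127.3 with anti-MYCN PNA, and all 24 poly-A spike probe sets were lower on that array than on both controls, with a median of 0.382 times mutated PNA. Of the myoblast and rhabdomyosarcoma markers, 8 of 10 passed, with summed signals of 17620, 15532 and 19542 in untreated, mutated PNA and anti-MYCN PNA cells. Of the markers of other cell types, 1 fibroblast gene of 8 (COL3A1), 1 epithelial gene of 7 (KRT18), 1 leukocyte gene of 8 (ITGB2) and 1 endothelial gene of 6 (ENG) passed. Summed signals in the same order were 641.4, 757.8 and 792.8 for the fibroblast list, 831.7, 509.9 and 615.3 for the epithelial list, 258.8, 284.2 and 353.5 for the leukocyte list and 266.7, 278.8 and 621.3 for the endothelial list. ENG itself read 204.7, 195.8 and 457.9, higher with anti-MYCN PNA than in both controls. The part of these in the differences below was not tested.

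With anti-MYCN PNA the respiratory chain genes as a group lay close to the controls, and the differences were small and ran both ways. Of the 49 members, 21 were above both controls, 15 were below both and 13 lay between them, against 47.9% of all genes above and 37.6% below. No member was at least 1.5-fold higher than both controls, where 8.27% of all genes were, and 1, NDUFA5, was at least 1.5-fold lower, where 7.37% were. At 2-fold no member passed in either direction, where 1.16% of all genes were higher and 1.26% lower. Bright genes spread less on these arrays: of the brightest 10% of all genes 4% were at least 1.5-fold from both controls in either direction. The median log2 difference from the mean of the controls was 0.02 over the members, 0.06 over all genes and 0.07 over the brightest 10%. The SD of this difference across genes was 0.23 for the members, 0.19 without NDUFA5, 0.49 for all genes and 0.32 for the brightest 10%.

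**Figure D1:**
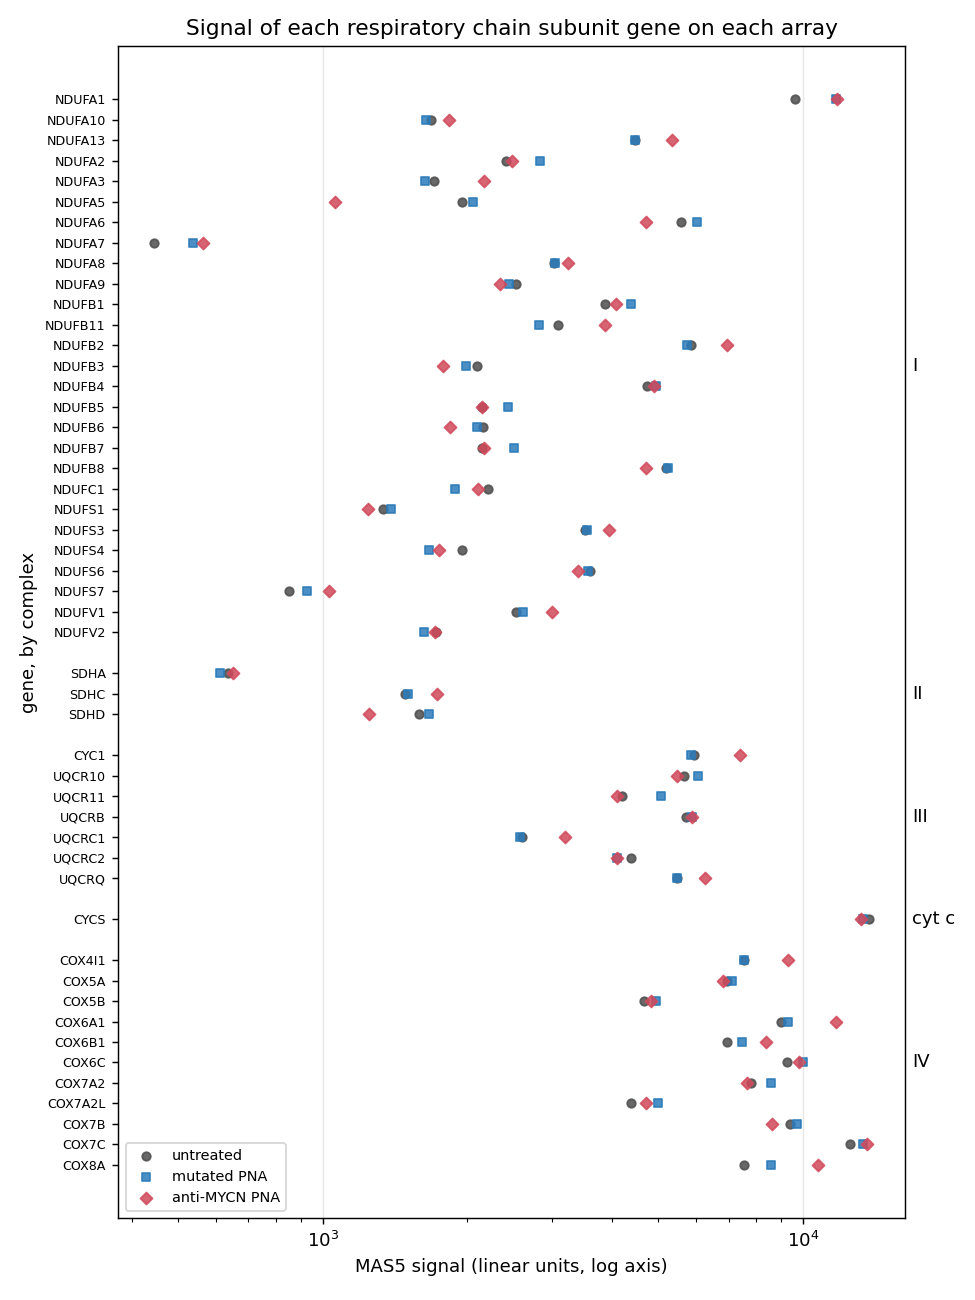
MAS5 signal on a log axis for each of the 49 subunit genes that passed the filter, grouped by complex, with circles for untreated, squares for mutated PNA and diamonds for anti-MYCN PNA, 1 array each. The 3 symbols lie close together for most genes; NDUFA5 stands out, with 1061 against 1948 and 2058.

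The medians of the complexes lay close together on the deposited scale. The median log2 difference between anti-MYCN PNA and the mean of the controls was 0.02 for complex I over 27 genes, 0.06 for complex II over 3, 0.02 for complex III over 7 and 0.03 for complex IV over 11, and CYCS alone was at -0.04. When scaled to the array median, which lowered all genes, these were -0.17, -0.13, -0.17, -0.16 and -0.23. Under quantile normalization CYCS was at -0.24. Without probe sets of the _x_at, _s_at and _f_at kinds complex II, then SDHD alone, was at -0.38 and complex III at 0.19, so the closeness of the medians depends on the probe sets used. Above and below both controls were 11 and 8 genes of complex I, 2 and 1 of complex II, 3 and 2 of complex III and 5 and 3 of complex IV. The genes within each of complexes I to IV spread more widely than these medians do.

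**Figure D2:**
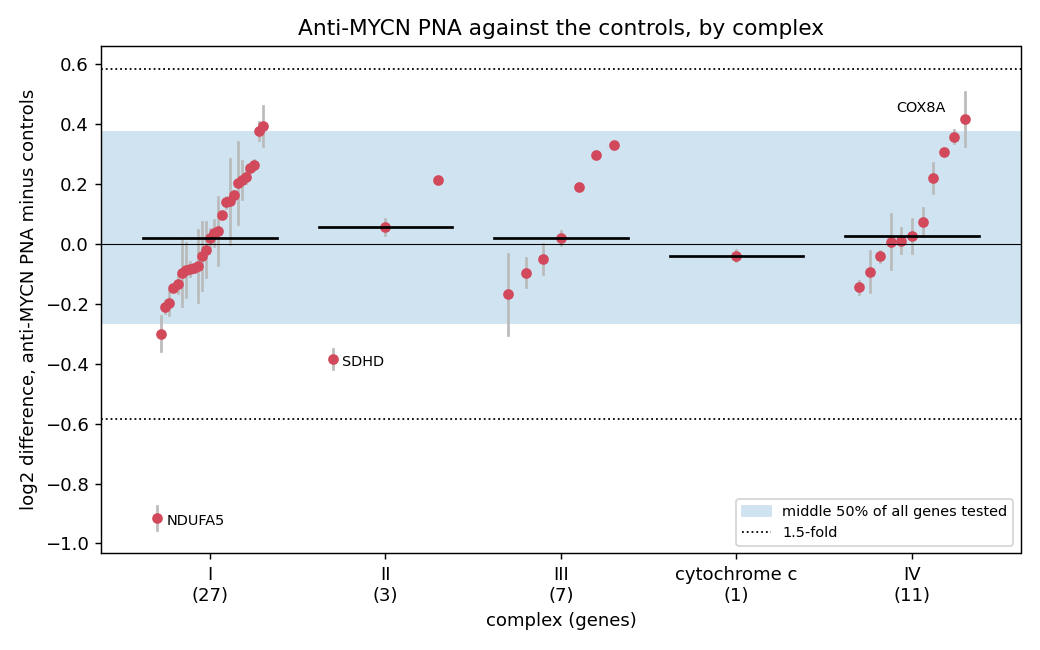
Log2 difference of each subunit gene on the anti-MYCN PNA array from the mean of the controls (points), from each control (ends of the grey lines) and the median per complex (black lines), beside the middle 50% of all genes tested (blue band). The medians of complexes I to IV lie between 0.02 and 0.06, and NDUFA5 is the only gene beyond the dotted 1.5-fold lines.

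Complex I oxidises NADH and is built of a matrix arm, which holds the flavin and iron-sulfur clusters, and a membrane arm, which pumps protons. Its accessory subunit NDUFA5, of the matrix arm, had signals of 1948 untreated, 2058 with mutated PNA and 1061 with anti-MYCN PNA. The controls lay together and the anti-MYCN PNA array far below them, at 54.5% of untreated and 51.6% of mutated PNA, a log2 difference of -0.88 to the nearer control. A second NDUFA5 probe set, too dim to pass, read 58.8, 59.7 and 40.2 on the same arrays. It adds little, since dim probe sets could vary widely, also between the controls. That of COX5B read 71.7, 137.6 and 24.1 and that of NDUFA2 read 7.6, 36.6 and 87.2, in the same order.

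NDUFA6, another accessory subunit of the matrix arm, read 5568, 6029 and 4709 in untreated, mutated PNA and anti-MYCN PNA cells, -0.24 to the nearer control on the log2 scale. Its other passing probe set read 932, 1040 and 1286, which lies on the opposite side of both controls. NDUFB6, a membrane arm subunit, read 2156, 2096 and 1836, -0.19 to the nearer control. NDUFB6 was thus below both controls by far less than NDUFA5, and NDUFA6 has no direction that its probe sets share.

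The complex I genes furthest above both controls were NDUFA3, NDUFB11 and NDUFA13, all accessory. NDUFA3 read 1701 and 1633 in untreated and mutated PNA cells and 2165 with anti-MYCN PNA, 0.35 to the nearer control. NDUFB11 read 3088, 2816 and 3873, a difference of 0.33, and NDUFA13, also known as GRIM-19, read 4479, 4467 and 5337, a difference of 0.25. In each of these the anti-MYCN PNA array was higher than both controls, by less than 1.5-fold to the nearer one; the controls of NDUFB11 were the furthest apart of the 3. NDUFB2 read 5855, 5723 and 6954 (0.25), but its other passing probe set read 2323, 2454 and 2188, below both controls. NDUFB8 read 5196, 5244 and 4712 (-0.14), while its other passing probe sets read 4143, 4726 and 4690, between the controls, and 192, 202 and 249.6, above both.

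The redox centres of complex I lie in some of its core subunits. NDUFV1, which binds NADH and the flavin, read 2531, 2606 and 3000 in untreated, mutated PNA and anti-MYCN PNA cells. NDUFS7, which holds the last iron-sulfur cluster before ubiquinone, read 849.7, 927.8 and 1029, and NDUFS3 read 3514, 3548 and 3955. These 3 were above both controls, by 0.20, 0.15 and 0.16 to the nearer control on the log2 scale; scaled to the array median, NDUFV1 was still above both and NDUFS7 and NDUFS3 were not. NDUFV2, the partner of NDUFV1, read 1723, 1622 and 1715, between the controls. NDUFS1, the largest iron-sulfur subunit, read 1335, 1390 and 1243, below both controls by 0.10 on the log2 scale.

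Over the 5 core subunits the median log2 difference from the mean of the controls was 0.16, and over the 22 accessory subunits it was -0.03. Over the 12 genes of the matrix arm it was -0.06, with 4 above and 5 below both controls, and over the 15 of the membrane arm 0.04, with 7 above and 3 below. Scaled to the array median these were -0.03, -0.22, -0.25 and -0.15. Core and accessory subunits overlapped, as did the arms.

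Complex II, succinate dehydrogenase, links the tricarboxylic acid cycle to the chain. SDHA, the flavoprotein that oxidises succinate, read 634.6, 611.7 and 648.8 in untreated, mutated PNA and anti-MYCN PNA cells, close together. SDHC and SDHD anchor the enzyme in the membrane. SDHD read 1589, 1668 and 1247, which is 78.5% of untreated and 74.8% of mutated PNA and, at -0.35 to the nearer control on the log2 scale, the member furthest below both controls after NDUFA5. SDHC read 1486, 1502 and 1733, above both controls by 0.21.

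The probe sets of SDHC split. Its 2 probe sets of the _x_at kind, whose probes can match other sequences, were above both controls on the anti-MYCN PNA array, the second with 1426, 1153 and 1629. Its 2 probe sets of the _s_at kind, shared between transcripts, were below both controls, with 996, 1255 and 906 and with 1125, 1256 and 1030. SDHC therefore has no direction that its probe sets share, and SDHA rests on 1 _x_at probe set. Of the 9 members with several passing probe sets, 4 had them on opposite sides of both controls (NDUFA6, NDUFB2, NDUFB8 and SDHC), and 40 members had 1. UQCRB, between the controls by its brightest probe set, had 2 of 3 below both.

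Complex III passes electrons from ubiquinol to cytochrome c. CYC1, the cytochrome c1 subunit, read 5918, 5856 and 7407 in untreated, mutated PNA and anti-MYCN PNA cells, 0.32 to the nearer control on the log2 scale. UQCRC1, a core protein of the matrix side, read 2604, 2580 and 3189 (0.29), and UQCRQ, a small ubiquinone-binding subunit, read 5469, 5463 and 6243 (0.19). In these 3 the controls nearly coincided and the anti-MYCN PNA array was higher, though scaled to the array median UQCRQ lay between the controls. UQCRC2, the partner of UQCRC1, read 4389, 4096 and 4098, with the anti-MYCN PNA and mutated PNA arrays together. Its other passing probe set read 2565, 2557 and 2164, below both controls by 0.24 on the log2 scale, so its probe sets do not give the same picture. UQCR10 read 5653, 6040 and 5468 and UQCR11 read 4197, 5059 and 4102, both below both controls by 0.05 or less on the log2 scale. CYCS, the soluble carrier between complexes III and IV, read 13725, 13351 and 13184, at 96.1% of untreated and 98.8% of mutated PNA; it has processed pseudogenes, so its signal may hold more than this gene.

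Complex IV, cytochrome c oxidase, reduces oxygen. Its subunits furthest above both controls were COX6A1, COX8A and COX4I1. COX6A1 read 9011 untreated, 9285 with mutated PNA and 11728 with anti-MYCN PNA, 0.34 to the nearer control on the log2 scale. COX8A read 7552, 8563 and 10746 (0.33), with the controls further apart, and had the highest difference of all members from the mean of the controls, 0.42. COX4I1 read 7531, 7541 and 9325 (0.31), but its other passing probe set read 4643, 4544 and 4565, between the controls.

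The complex IV genes below both controls were COX7B, COX5A and COX7A2. COX7B read 9407, 9696 and 8639, -0.12 to the nearer control, and COX5A read 6937, 7108 and 6826, -0.02. COX5B, which with COX5A belongs to the conserved nuclear subunits, read 4662, 4941 and 4836, between the controls, while its other passing probe sets, both of the _x_at kind, read 4340, 4354 and 4628 and 3832, 3345 and 3978, above both. COX7A2L, which is named for its likeness to COX7A2 and is known as an assembly factor of supercomplexes, read 4391, 4987 and 4704, also between the controls. COXFA4 read 10373, 11014 and 9947, -0.10 from the mean of the controls.

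The ubiquitous isoforms were detected and the muscle-type isoforms were dim on all arrays. COX6A2, the form of heart and skeletal muscle, read 52.5 untreated, 60.5 with mutated PNA and 111.5 with anti-MYCN PNA, all under the filter of 117.1. COX7A1, the muscle form of COX7A, read 10.5 and 4.9 in untreated and mutated PNA cells, both under the floor of 23.4, the 25th percentile of all signals, and 35.1 with anti-MYCN PNA. Both muscle-type genes therefore read highest with anti-MYCN PNA, at levels where no fold is given. Among the 9165 probe sets that named a single gene and failed the filter, 18.3% exceeded both controls by 1.5-fold or more on that array, so a higher reading of a dim probe set was frequent there.

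The ubiquitous forms did not move together. COX6A1 was above both controls, as given, while COX7A2 read 7782, 8558 and 7658, below both controls by 0.02 on the log2 scale. COX6B1 read 6958, 7453 and 8393, above both by 0.17, but between the controls when scaled to the array median. Over the 4 ubiquitous forms COX4I1, COX6A1, COX6B1 and COX7A2 the median log2 difference from the mean of the controls was 0.26. Over all genes it was 0.06. Of the 4, 3 were above and 1 below both controls. The median of the 4 was 0.20 under quantile normalization and 0.07 when scaled to the array median, with 2 above and 1 below in the latter. The 3 above include COX4I1, whose other passing probe set lay between the controls. They also include COX6B1, which was below both with each chromosome's median subtracted.

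**Figure D3:**
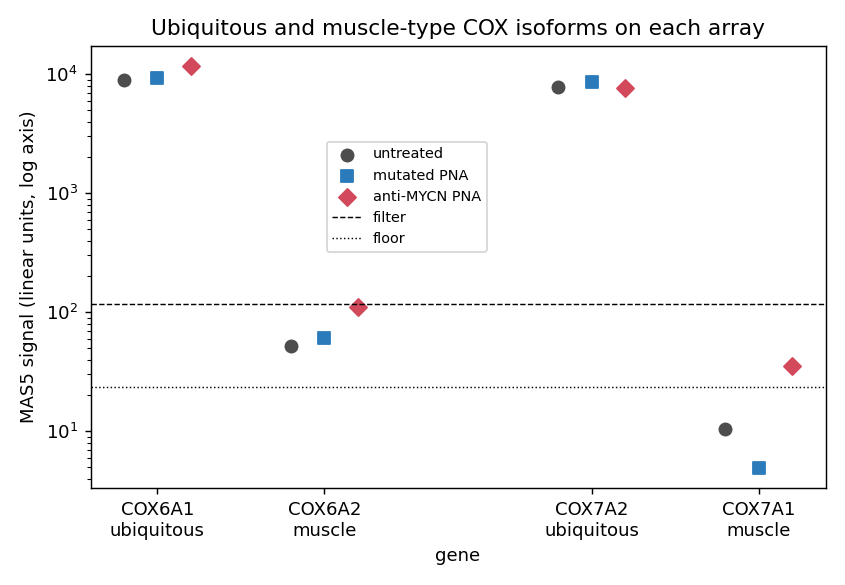
MAS5 signal on a log axis of the ubiquitous and muscle-type forms of COX6A and COX7A on the 3 arrays, with the filter of 117.1 (dashed line) and the floor of 23.4 (dotted line). COX6A1 and COX7A2 lie far above the filter, COX6A2 lies under it on every array, and COX7A1 lies under the floor in both controls; levels of different genes come from different probes.

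By their spread over members, the controls differed less from each other than the anti-MYCN PNA array did from them. No member differed by 1.5-fold between them, where 2.4% of all genes were higher with mutated PNA and 2.27% lower. The SD across members of the log2 difference between mutated PNA and untreated was 0.12, against 0.28 over all genes and 0.14 over the brightest 10%, of whose 675 genes 2 were 1.5-fold higher and 1 lower. The members thus spread about as other bright genes did. The genes furthest lower with mutated PNA were NDUFS4 and NDUFC1, both at -0.23, then NDUFB11 at -0.13, UQCRC2 at -0.10 and NDUFV2 at -0.09. Those furthest higher were NDUFA1 at 0.28, NDUFA7 and UQCR11 at 0.27, NDUFA2 at 0.24 and NDUFB7 at 0.22.

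Complex IV leaned to one side in this comparison. All 11 of its genes read higher with mutated PNA than untreated, where 50.2% of all genes and 54.4% of the brightest 10% did, but the differences were small, from 0.002 to 0.18 with a median of 0.09. Of the other complexes, 15 of 27 complex I genes, 2 of 3 complex II genes and 3 of 7 complex III genes read higher, and CYCS read lower. Over single probe sets of complex IV, 12 of 16 read higher. Under quantile normalization 9 of the 11 genes did, and under scaling to the array median 10 did. The direction rests on the disputed label of the untreated array.

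For many members the side of both controls depended on the scaling. Scaled to the array median, the median of all genes moved from 0.06 to -0.13 and that of the members from 0.02 to -0.17. The split of members then went from 21 above and 15 below to 11 above and 33 below, and that of all genes from 47.9% and 37.6% to 32.0% and 53.3%. This scaling multiplies each array by a constant, so the members' median relative to all genes, -0.04, could hardly change. That relative median was -0.006 under quantile normalization, 0.007 with the filter at the 75th percentile and 0.007 without the filter. Under all 3 scalings (as deposited, quantile and median) 11 members lay above both controls and 13 below both, against 31.4% and 36.4% of the genes tested. The 11 were COX4I1, COX6A1, COX8A, CYC1, NDUFA3, NDUFA13, NDUFB2, NDUFB11, NDUFV1, SDHC and UQCRC1. The 13 were COX5A, COX7A2, COX7B, CYCS, NDUFA5, NDUFA6, NDUFB3, NDUFB6, NDUFB8, NDUFS1, NDUFS6, SDHD and UQCR10. NDUFB2 and SDHC among the 11, and NDUFA6 and NDUFB8 among the 13, have passing probe sets on opposite sides of both controls. NDUFA5 was below both controls by 0.85 to 1.07 on the log2 scale in each of these scalings.

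**Figure D4:**
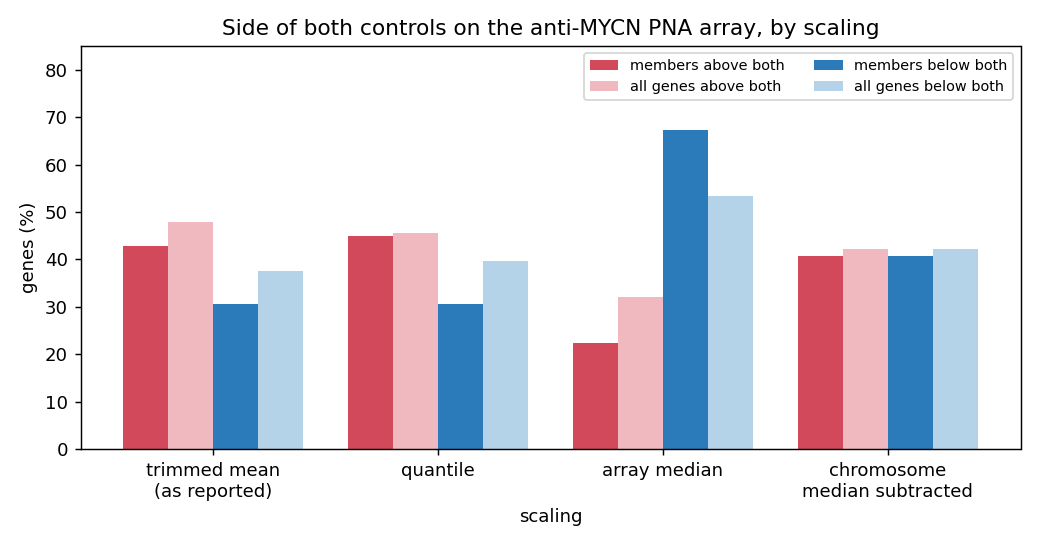
Percentage of the 49 members (dark bars) and of all genes tested (pale bars) that lay above both controls (red) or below both (blue) with anti-MYCN PNA, under 3 scalings and with each chromosome's median subtracted. Scaling to the array median turns the split of the members from 21 above and 15 below to 11 and 33, and that of all genes in the same sense.

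Chromosomes differed in their median on the anti-MYCN PNA array, and some members moved with them. Over the 435 genes tested on chromosome 19 the median log2 difference from the mean of the controls was 0.33, and 72.4% were above both controls, whereas on chromosome 13 the median was -0.24. The 7 members on chromosome 19 had a median of 0.21, with 5 above both controls. With each chromosome's median subtracted, 20 members were above and 20 below both controls, and 6 members changed to below both: COX6B1, NDUFA13 and NDUFS7, from above, and NDUFB7, from between, on chromosome 19, NDUFS3, from above, on chromosome 11, and UQCRC2, from between, on chromosome 16. NDUFB7 and UQCRC2 were then furthest below among these, by 0.29 and 0.21 to the nearer control on the log2 scale. The part of chromosome position in the members' differences was not tested.

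RefSeq's table on GRCh38.p14 gave a promoter, from 250 bases before to 50 after the start, for 45 of the 51 members, 54 promoters in all. Letters were searched on both strands. CGCATGCG was in 13.0% of the member promoters, against 2.02% of all 35116 promoters and 3.69% of those of the genes tested. Its 7 member genes were COX6A1, NDUFA5, NDUFA8, NDUFB4, NDUFS6, NDUFS7 and SDHD, of which 3 were above and 3 below both controls. CCGGAAGT, the site of the ETS factor GABPA, was in 13.0% against 4.14% of all promoters and 7.83% of those of the genes tested, and ATGGCGGC, a YY1 site, in 20.4% against 2.996% and 6.17%. The genes holding them lay on both sides of the controls, 3 above and 3 below for CCGGAAGT and 5 above and 4 below for ATGGCGGC.

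The MYC-family E-box CACGTG was in 5.56% of member promoters, in NDUFA7, NDUFS7 and UQCR11, against 7.26% of all promoters and 9.93% of those of the genes tested. NDUFA7 read 445.4, 537.9 and 563.9 in untreated, mutated PNA and anti-MYCN PNA cells. On the deposited scale NDUFA7 and NDUFS7 were above both controls, while UQCR11 was below both by 0.03 on the log2 scale. Scaled to the array median, NDUFA7 and NDUFS7 lay between the controls. All of these genes lie on chromosome 19, whose tested genes had a median of 0.33. With each chromosome's median subtracted NDUFA7 lay between the controls, and NDUFS7 and UQCR11 were at -0.03 and -0.34 to the nearer control. CAGCTG was in 22.2% against 17.9% and 17.0%, and COX6A2 was among its genes. A match describes the letters of this window and not a bound site.

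The GC content of the promoters had a median of 64% for members above both controls and 56.3% for those below both, where all genes gave 66.3% and 63.7%. Across the 44 members with a promoter that passed, the correlation of GC content with the difference from the controls was 0.36, or 0.27 without NDUFA5, and over all genes it was 0.13; the points share the same 3 arrays. Its part in the differences was not tested.

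The genes around the chain were described from lists of known genes, whose counts are on the deposited scale; scaled to the array median, each list below had more genes below than above both controls. Over all genes the deposited scale gave 47.9% above both and 37.6% below both, with 8.27% and 7.37% at 1.5-fold. Each gene of these lists is read by its brightest passing probe set. Whether its other probe sets share the direction is not given. ATP synthase makes ATP from the proton gradient, and of its 16 genes 12 were above both controls and 3 below, with none at 1.5-fold and a median log2 difference of 0.15. This lean did not hold under other scalings, with 8 above and 6 below under quantile normalization and 4 above and 8 below when scaled to the array median. ATP5F1D, the delta subunit, read 805.6, 915.7 and 1153 in untreated, mutated PNA and anti-MYCN PNA cells, 0.33 to the nearer control, and ATP5MC2, of the c-ring, 5692, 5814 and 7104, 0.29. Below both were ATP5PF, with 7496, 7951 and 6695, and ATP5F1A by 0.03.

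Assembly factors build the complexes and are not part of them. Of 26 that passed, 12 were above and 12 below both controls, with 1 at least 1.5-fold higher and 3 lower, or 0 and 5 when scaled to the array median. The lowest were NUBPL, which delivers iron-sulfur clusters to complex I, with 281.1, 316.1 and 140.2, and NDUFAF7, a methyltransferase for complex I assembly, with 197, 239 and 99.1. COX10, which makes haem O, the precursor of the haem A of complex IV, read 1567, 1545 and 2540, and SDHAF1, which acts on the iron-sulfur subunit of complex II, read 539.1, 555.5 and 831.1. The differences to the nearer control were -1.004, -0.99, 0.70 and 0.58 on the log2 scale. In size these exceed the difference of every member that passed except NDUFA5, and those of NUBPL and NDUFAF7 exceed that of NDUFA5 too. They are the furthest genes of their list. NUBPL and NDUFAF7 are dim, and NDUFAF7 read under the filter of 117.1 with anti-MYCN PNA.

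Enzymes of the tricarboxylic acid cycle feed the chain with NADH and succinate. Of 16 genes, 6 were above and 9 below both controls, 1 was at least 1.5-fold higher and 3 lower, or 0 and 4 when scaled to the array median. SUCLA2, a succinyl-CoA synthetase subunit, read 2632, 2385 and 1258 and DLD, shared by the 2-oxoacid dehydrogenases, 2851, 2916 and 1584, at -0.92 and -0.85 to the nearer control. OGDH read 255.1, 241.2 and 420.4 (0.72) and DLST 586.6, 574.8 and 764.5 (0.38). Both belong to 2-oxoglutarate dehydrogenase, 1 of the enzymes that share DLD. By their brightest probe sets, subunits of that enzyme thus read on opposite sides, OGDH and DLST above both controls and DLD below.

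Of 14 regulators of mitochondrial genes that passed, 5 were above and 7 below both controls. Their median log2 difference was -0.27, where the full set of genes tested gave 0.06. Under quantile normalization these medians were -0.28 and 0.04, and when scaled to the array median -0.46 and -0.13. The regulators also spread widely between the controls. The SD of mutated PNA minus untreated was 0.42 for them and 0.28 for all genes. Whether the regulators differ as a set was not tested. GABPA read 309.1, 228.4 and 146.8, with its controls apart, and was at -0.64 to the nearer control. It was the only regulator at 1.5-fold on the deposited scale. Scaled to the array median, 3 regulators were at least 1.5-fold lower. HIF1A, the hypoxia factor, read 4150, 3957 and 2932 (-0.43), ESRRA 599.6, 495.1 and 747.3 (0.32) and POLRMT, the mitochondrial RNA polymerase, 399.2, 427.8 and 507.4 (0.25).

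Of 48 mitochondrial ribosome genes 25 were above and 19 below both controls, and of 24 genes for import and membrane organisation 14 and 9. MRPL2 read 214.8, 244.3 and 444 and MRPL49 1519, 1645 and 2763, the only ribosome genes at 1.5-fold on the deposited scale (1 higher and 1 lower when scaled to the array median), while MRPL46 and MRPL19 were at -0.47 and -0.34 to the nearer control. Of the import list, TIMM17B read 463.7, 474.9 and 754.6 and SLC25A3, the phosphate carrier, 11335, 11399 and 16129, while OPA1 and TIMM17A were at -0.48 and -0.30. TIMM17A and TIMM17B, alternative forms of a translocase subunit, read on opposite sides of the controls.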

How the data were processed

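RNA of RH30 cells was measured on 3 Affymetrix arrays, 1 per group. The deposited values are the authors' MAS5 signal intensities, linear and scaled, made with MAS5 and GCOS per the submitters' processing notes; versions are not given in the sources used here. MAS5 subtracts mismatch probes, so dim values are noisy, and the number of arrays limits the precision. Signals were floored at the 25th percentile of all values (23.4), and probe sets with a mean under the 50th percentile (117.1) were left out. Probe sets were named by GEO's platform annotation with RefSeq symbols: of 22215 gene probe sets 19064 named 1 gene and were used, 1043 named several and 2108 none. Log2 differences were taken from the mean of the controls and from the nearer control (0 where the array lies between them). Python 3.11.15, numpy 2.4.6, pandas 2.3.3 and matplotlib 3.10.9 were used. No test was possible with 1 array per group.

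The members and lists were chosen with earlier results of these data known; the complex I arms, motifs, GC content, scaling overlap and chromosome medians were added after the values were seen. Named were complex II, isoform pairs, CYC1, CYCS, core subunits, the 3 genes furthest each way per complex, the 5 furthest each way between controls, genes whose probe sets disagree, up to 2 genes each way per list, and MYCN. NDUFS6, NDUFA8, NDUFB4 and others named by a motif or a scaling were named after their values were seen.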

Additional observations from a re-analysis of the deposited data

How the results depend on the processing

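With quantile normalization the log2 difference from the mean of the controls was -0.24 for CYCS and 0.21 for COX6A1. Scaled to the array median, 11 members were above and 33 below both controls and 1 (NDUFA5) was at least 2-fold lower; the median was -0.17 over the members, -0.17 for complex I, -0.13 for complex II, -0.17 for complex III, -0.16 for complex IV and -0.23 for CYCS, with COX4I1 at 0.12, COX6A1 at 0.17, COX6B1 at 0.032 and COX7A2 at -0.28. Without the filter 1 member, COX6A2, was at least 1.5-fold higher than both controls. With probe sets of a gene combined by their median COX4I1 was at 0.15. Without probe sets of the _x_at, _s_at and _f_at kinds 31 members were left, complex II was at -0.38 and complex III at 0.19. With each chromosome's median subtracted COX4I1 was at 0.11 and COX6B1 at -0.10. At a 3-fold threshold 0 members were lower. The cause of these shifts was not tested, beyond the scalings' own construction and the smaller number of genes. The filter at the 75th percentile, no floor and the pseudocount left all 49 results compared within a log2 tolerance of 0.1, or within 1.5 times for counts. These results are counts, medians and differences of named genes, not the members themselves. No member that passed read under the floor, so leaving the floor out could not move a member's value. No replicate could be left out and no paired analysis was possible because each group has 1 array. Dim genes are limited by signal near background.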
